A study of Drosophila melanogaster with 27 samples.

Results

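Glutathione S-transferases (GSTs) join the tripeptide glutathione to reactive and foreign compounds. The Delta (GstD) and Epsilon (GstE) classes are insect specific and are best known for the metabolism of insecticides and plant toxins, while the Omega (GstO), Sigma (GstS), Theta (GstT) and Zeta (GstZ) classes also occur in vertebrates. In Drosophila several of these genes respond to oxidative stress through the transcription factor Cnc (CncC, the fly counterpart of Nrf2), which the adaptor Keap1 holds in check, and GstD1 is the usual reporter of that pathway. The genes described here are the 35 of the 17529 genes in the count table whose FlyBase symbol starts with GstD (11 genes), GstE (14), GstO (3), GstS (1), GstT (4) or GstZ (2). GstD11 was set beside its family. After the filter on low counts 32 of the 35 were tested, and GstD4, GstD6 and GstD7 were not.

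RNA was sequenced from heads of flies aged 1 to 3 days, males and females pooled, in which the split GAL4 driver SS01276 expressed a transgene in a subset of mushroom body neurons (MBNs). The transgenes were human TDP-43 WT fused to YFP (TDP43WT-YFP, line TDP-92), G298S, which is TDP-43 with that disease mutation, fused to YFP (TDP43G298S-YFP, line TDP-94) or YFP alone (2XEYFP, line GRYFP-5). Both TDP-43 genotypes were in a w background and also carried UAS mCD8-RFP, while YFP flies were yw (the study's strain list gives the w allele as w1118) and had no RFP transgene in their label, so TDP-43, RFP and background cannot be told apart in a comparison with YFP. Each genotype is 1 line, and the study describes YFP alone as expressed far more strongly than the fusions. Each genotype had 3 lysates of pooled heads (G298S-203, G298S-503 and G298S-506 for the mutant, WT-202, WT-502 and WT-505, and YFP-201, YFP-901 and YFP-902), and each lysate gave a GFP-Trap IP, an unbound and an input library. WT-202, G298S-203 and YFP-201 share the label prefix P211022. The other TDP-43 lysates have a different prefix from the other YFP lysates, so prefix and genotype are partly confounded in a comparison with YFP.

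The 27 libraries held 1848426 to 157035496 counts. Mitochondrially encoded genes took 47.5% to 49.6% of the counts in G298S inputs and 30.1% to 37.4% in TDP-43 WT inputs, against 28.7% to 32.0% in YFP inputs. The summed level of 8 Kenyon cell markers was 1176 to 1458 CPM (counts scaled to library sizes adjusted by edgeR's TMM method) in TDP-43 WT IPs against 464 to 702 CPM in their inputs, 1177 to 1546 CPM in G298S IPs against 640 to 659 CPM, and 419 to 932 CPM in YFP IPs against 267 to 354 CPM, and none of the 8 was at 0 in any library. Lysate WT-502 stood apart, since the deviations of its IP and input from their group means had a correlation across genes of 0.06, against 0.34 to 0.73 in the other 8 lysates. Every lysate was left out in turn, and WT-502 and G298S-203 together, as alternatives.

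The 35 genes lie on 4 chromosome arms in the Ensembl release 115 annotation (BDGP6.54), 17 on 2R, 13 on 3R, 3 on 3L and 2 on X. GstE1 to GstE10 form 1 cluster on 2R, and GstD1 to GstD11 form 1 cluster on 3R, where GstD11 stands at the outer edge next to CG10035 and Sol1. They are short genes, with a median exon length of 881 bases (725 to 2325) against 1761 bases over all genes tested, and 16 of them have 1 exon block. Neighbouring Delta and Epsilon genes are similar in sequence, and how reads shared between them were counted is not given in the sources used here, so values of single members of these clusters are uncertain to that extent. GstT2 shares 25.1% of its exon bases with CG12926 on the opposite strand, and GstE12, GstE13, GstE9, GstO2, GstE1 and GstE10 overlap a neighbour by 6 to 61 bases.

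The family was uneven in head RNA. Levels per length are given as RPKM (CPM per kilobase of exon), averaged over the 9 inputs. GstE12 had 427 RPKM (292 to 744) and GstD1 had 396 RPKM (304 to 566), and GstE12 was above GstD1 in 5 of the 9 inputs, so their order did not hold beyond the spread. GstE1 followed with 190 RPKM and GstD1 was above it in 9 of 9 inputs. GstT4 had 145 RPKM, GstE9 had 132 RPKM and GstE14, the Noppera-bo enzyme needed for ecdysone synthesis, had 114.5 RPKM, while GstS1, the Sigma enzyme that clears lipid peroxidation products and is abundant in muscle, had 104 RPKM. The orders of GstE9 against GstE14 (5 of 9 inputs) and GstE14 against GstS1 (4 of 9) were not fixed. At the low end GstD11 had 2.92 RPKM (1.82 to 4.42), 29th of the 35, with GstD10 at 3.91 RPKM above it in 8 of 9 inputs and GstD5 at 1.73 RPKM below it in 7 of 9. GstD4, GstD6 and GstD7 had 0 to 7, 0 to 9 and 0 to 25 counts per library, with 9, 14 and 7 of the 27 libraries at 0.

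**Figure D1:**
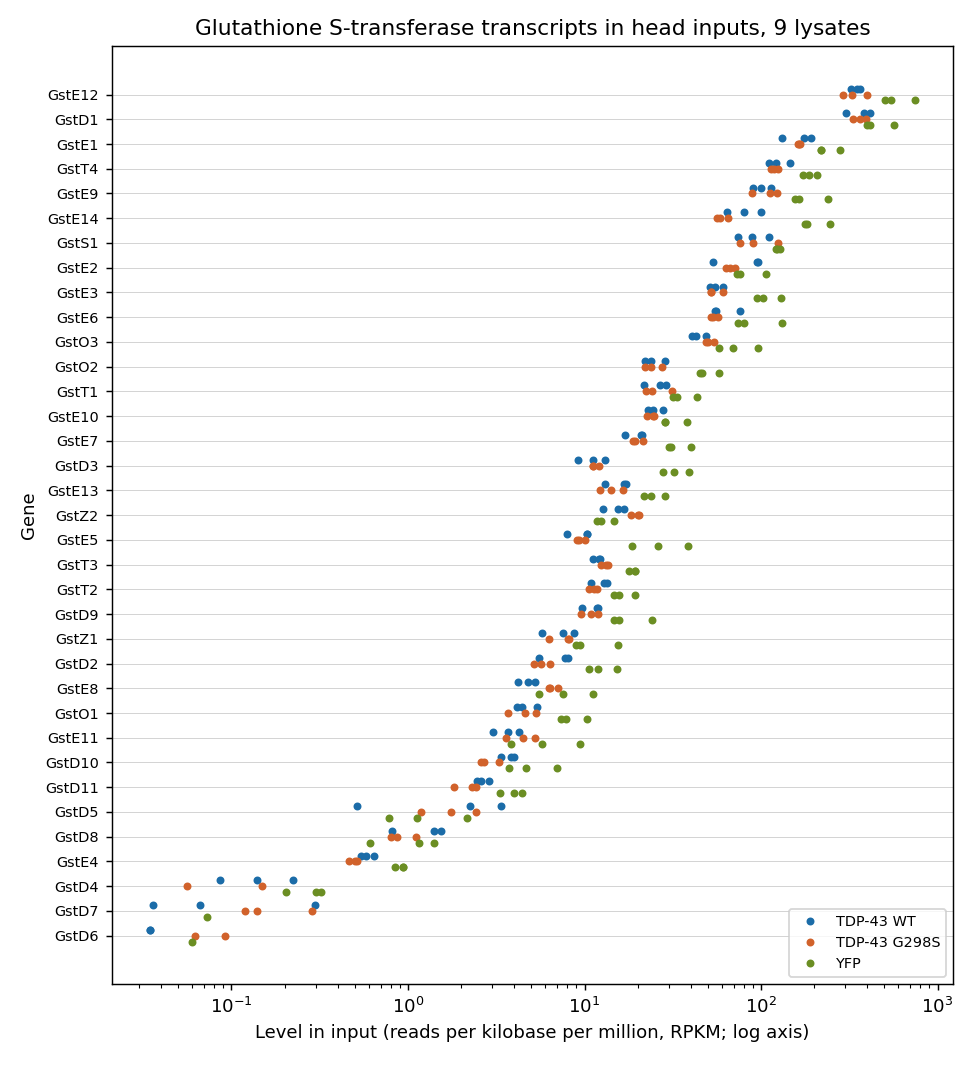
Level of the 35 genes (rows, ordered by mean) in the 9 inputs, as RPKM on a log axis, with 1 point per lysate coloured by genotype and values of 0 left out. GstE12 and GstD1 lie at the top, GstD11 is the 29th, and for most genes the YFP points lie to the right of both TDP-43 genotypes.

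The IP of each genotype was compared with its input to ask which mRNAs were recovered with TDP-43, and with YFP alone as the background. GstD11 was the only member that passed the test of a difference in enrichment between TDP-43 and YFP. It had 16.4, 23.3 and 23.8 CPM in the IPs of WT-502, WT-505 and WT-202, against 2.91, 3.25 and 2.76 CPM in their inputs. It had 19.3, 18.7 and 16.3 CPM in the IPs of G298S-503, G298S-506 and G298S-203, against 2.04, 2.73 and 2.59 CPM in their inputs. With YFP alone it had 3.36, 3.47 and 4.66 CPM in the IPs of YFP-901, YFP-902 and YFP-201, against 4.49, 3.71 and 4.96 CPM in their inputs. Every TDP-43 IP was thus above every other library, and the YFP IPs overlapped their inputs. In bulk heads, fewer cells of a type and less RNA per cell cannot be told apart, and an IP library gives shares of the recovered RNA, not amounts.

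With TDP-43 WT the IP of GstD11 exceeded the input by 2.79 ± 0.22 on the log2 scale (log2FC ± SE), a 6.89-fold difference (adjusted p = 5.48e-07, edgeR quasi-likelihood test), and with G298S by 2.78 ± 0.22 (adjusted p = 9.05e-07). Its log2FC with YFP alone was -0.10 ± 0.21 (adjusted p = 0.786). The difference of these log2FC values was 2.89 ± 0.30 for TDP-43 WT minus YFP (adjusted p = 7.09e-05) and 2.88 ± 0.31 for G298S minus YFP (adjusted p = 0.000994), 13th and 1st by p value of the 12921 genes tested. By the size of the difference GstD11 ranked 317th and 270th. Between TDP-43 WT and G298S its log2FC differed by 0.00 (adjusted p = 1). In those 3 contrasts 1.45%, 0.797% and 0.263% of all genes were called in either direction at an adjusted p below 0.05. Among the members GstD11 was called in each contrast with YFP, and none was called between the variants (0 with DESeq2). Between the variants 2 members had an unadjusted p below 0.05, against 992 of the 12921 genes. Lysates labelled with the prefix P211022 hold 1 of each genotype, and there log2 IP over input was 3.07 in WT-202, 2.62 in G298S-203 and -0.09 in YFP-201. With the label prefix as a covariate the differences were 2.72 and 2.73, with adjusted p = 0.144 and 0.317.

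**Figure D2:**
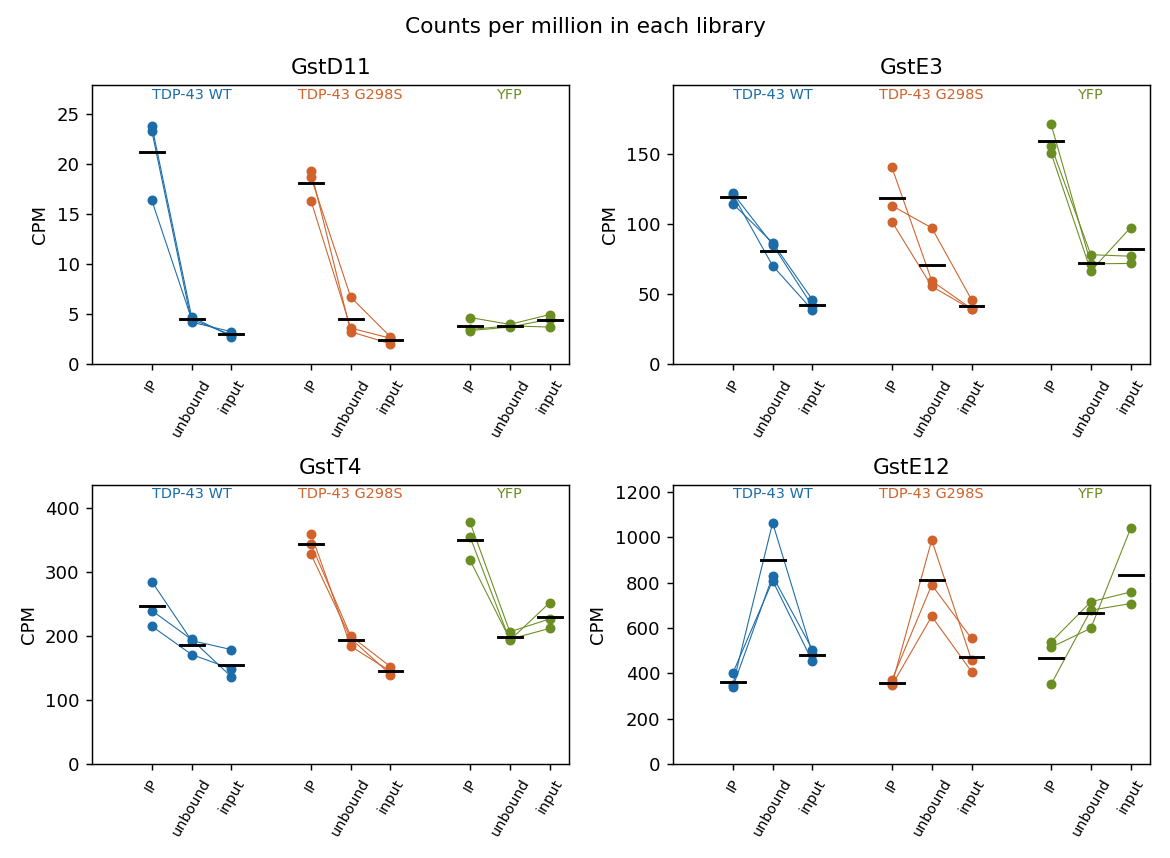
CPM of GstD11, GstE3, GstT4 and GstE12 in all 27 libraries, with genotypes from left to right (TDP-43 WT, G298S, YFP) and in each the IP, the unbound fraction and the input. Points are libraries, thin lines join the libraries of 1 lysate and black bars are means of 3. GstD11 is high in the 6 TDP-43 IPs alone (16.3 to 23.8 CPM), GstE3 and GstT4 are higher in the IPs than in the inputs of all 3 genotypes, and GstE12 is lower in the IPs.

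Both annotated neighbours of GstD11 were looked at after its values were seen, and Sol1 passed the same test. It starts 624 bases beyond GstD11 on the same strand, and its difference of log2FC was 1.80 ± 0.41 for TDP-43 WT minus YFP (adjusted p = 0.0383) and 2.01 ± 0.41 for G298S minus YFP (adjusted p = 0.035). It had 17.2 to 31.1 CPM in TDP-43 WT IPs, against 4.89 to 5.07 CPM in their inputs. CG10035 lies 644 bases to the other side on the opposite strand. It had 16 to 35 counts in TDP-43 WT IPs and 5 to 19 in G298S IPs, against 0 to 3 in YFP IPs. Its log2FC of IP over input was 2.92 ± 1.00 with TDP-43 WT and 3.45 ± 1.06 with G298S (adjusted p = 0.0381 and 0.0275). With YFP it was -1.65 ± 1.19 (adjusted p = 0.351). The differences of CG10035 from YFP, 4.57 ± 1.54 and 5.10 ± 1.57, had large errors and did not pass the test (adjusted p = 0.219 and 0.142). Whether reads are shared between these transcripts was not tested. GstD8, the next Delta gene beyond CG10035, did not pass the test, with log2FC values of 0.47, 0.86 and -0.93 in the 3 genotypes. Its counts were low, with 8 to 23 in TDP-43 WT IPs, 3 to 34 in G298S IPs and 0 to 11 in YFP IPs.

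Over the 27 libraries the 5 genes whose log2 CPM followed GstD11 most closely were lncRNA:CR43461 (Pearson r = 0.95), Cdk5 (0.94), CG4259 (0.94), CG12730 (0.94) and Sol1 (0.93). Since GstD11 was high in the TDP-43 IPs alone, this choice fixed that the 5 were high there too. Cdk5, the neuronal cyclin-dependent kinase, for example, had log2FC values of 1.53 with TDP-43 WT and 1.16 with G298S, against -0.09 with YFP. The 27 libraries share lysates, and the likeness is a description. Among the members the values ran from -0.68 for GstS1 to 0.62 for GstE3.

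Of the other members, 4 rose and 1 fell in the IPs of all 3 genotypes, YFP included, against 7.89% and 4.11% of all genes. In the TDP-43 WT, G298S and YFP IPs 5, 5 and 4 of 32 members were higher than in the input, against 16.3%, 12.6% and 15.9% of all genes, and 2, 4 and 4 were lower, against 11.5%, 9.95% and 9.99%. Of these, 4, 5 and 2 also had a log2FC above 1, against 10.5%, 7.39% and 10.3% of all genes. The median member log2FC was 0.03, -0.06 and -0.28, beside -0.09, -0.16 and -0.14 over all genes. Of the 32 members 21 were called in no IP in either direction, against 59.4% of all genes.

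GstE3, GstE7, GstE8 and GstT4 rose in all 3 IPs. GstE3, an Epsilon enzyme in the middle of the 2R cluster, had 122, 114.6 and 121 CPM in the IPs of WT-502, WT-505 and WT-202, against 41.5, 46.1 and 38.6 CPM in their inputs. In YFP-901, YFP-902 and YFP-201 it had 156, 172 and 151 CPM in the IPs, against 77.1, 71.9 and 97.6 CPM in the inputs. No IP overlapped an input in either genotype, and the log2FC was 1.46 ± 0.14 with TDP-43 WT, 1.42 ± 0.14 with G298S and 1.06 ± 0.14 with YFP (adjusted p = 2.73e-06, 5.57e-06 and 7.94e-05). The differences from YFP were 0.40 and 0.36 (adjusted p = 0.425 and 0.453).

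GstE7 and GstE8, its neighbours further along the cluster, had log2FC values of 1.07 and 1.40 with TDP-43 WT, 1.11 and 1.03 with G298S, and 0.78 and 1.25 with YFP. GstT4, a Theta enzyme encoded on X and the fourth most abundant member, had 344, 328 and 360 CPM in the IPs of G298S-503, G298S-506 and G298S-203, against 152, 140 and 145 CPM in their inputs. Its log2FC was 1.16 ± 0.13 with G298S, 0.62 ± 0.13 with TDP-43 WT and 0.70 ± 0.13 with YFP (adjusted p = 1.66e-05, 0.00155 and 0.00092). The difference of GstT4 between TDP-43 WT and G298S was -0.53 (adjusted p = 0.454).

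GstE12 fell in all 3 IPs, by 0.45 ± 0.15 with TDP-43 WT, 0.49 ± 0.15 with G298S and 0.74 ± 0.15 with YFP on the log2 scale (adjusted p = 0.0331, 0.0271 and 0.00218). It had 349, 340 and 401 CPM in the IPs of WT-502, WT-505 and WT-202, against 487, 505.2 and 453 CPM in their inputs. GstE9 and GstE14 fell with G298S (by 0.53 and 0.57) and with YFP (by 0.52 and 0.61), and their values with TDP-43 WT were -0.15 and -0.25 (adjusted p = 0.495 and 0.37). GstE5 fell by 1.37 ± 0.28 with G298S (adjusted p = 0.00251), GstS1 fell by 0.85 ± 0.24 with TDP-43 WT (adjusted p = 0.0158), and GstE13 fell by 0.53 ± 0.14 with YFP (adjusted p = 0.011, and 0.0509 with the lysate as a block). GstE5 had values of -0.73 with TDP-43 WT and -0.40 with YFP, and none of these members passed the test of the difference between genotypes.

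Leaving out 1 lysate moved the counts of falls by over 1.5 times and not those of rises. With 2 members lower in the TDP-43 WT IP, 0 were left without lysate WT-502, 1 without WT-505, G298S-506 or YFP-902, and 4 without WT-202. With 4 lower in the G298S IP, 1 was left without G298S-503 or G298S-506, and 2 without G298S-203 or YFP-902. Of 4 lower in the YFP IP, 1 was left without YFP-901 or YFP-201 and 2 without YFP-902. Whether the calls over all genes moved likewise is not given here.

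**Figure D3:**
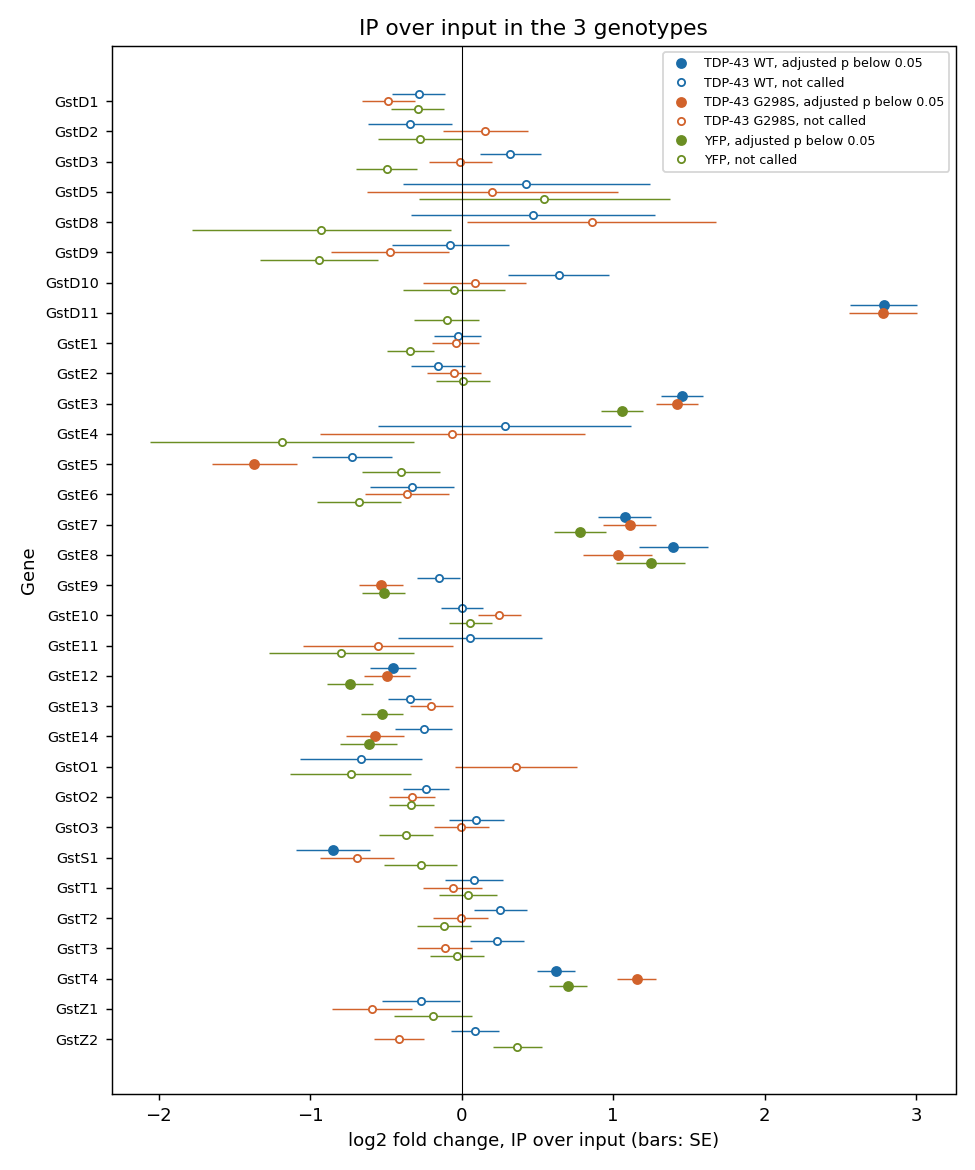
log2FC of IP over input (x axis, with SE bars) of the 32 tested members (rows) with TDP-43 WT, G298S and YFP, each from 3 lysates. Filled points passed an adjusted p of 0.05. GstD11 stands alone at 2.79 and 2.78 with TDP-43 and -0.10 with YFP, while GstE3, GstE7, GstE8 and GstT4 lie above 0 in all 3 genotypes.

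The inputs were compared to ask how whole head RNA differed between the genotypes. Transcripts of the family took a smaller share of counts in both TDP-43 inputs than in YFP inputs. With TDP-43 WT 12 of 32 members were lower, against 7.37% of all genes, and no member was called higher by edgeR, against 7.58% of all genes. With G298S 14 were lower and 1 higher, against 12% and 15.4% of all genes. The median member difference was -0.56 with TDP-43 WT and -0.65 with G298S, beside 0.13 and 0.09 over all genes. The summed level of the family was 1903 ± 200.3 CPM in TDP-43 WT inputs and 1873 ± 129 CPM in G298S inputs, against 2974 ± 517 CPM in YFP inputs (SD, n = 3). Between TDP-43 WT and G298S inputs 0 members were called with edgeR, against 0.248% of all genes, and 0 with DESeq2. At an unadjusted p below 0.05 with edgeR there were 2 members, against 1197 of the 12921 genes.

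The 10 members that were lower in both genotypes were GstD3, GstE3, GstE5, GstE7, GstE9, GstE12, GstE13, GstE14, GstO2 and GstT4. GstE14 had 81.2, 101 and 64.9 CPM in the inputs of WT-502, WT-505 and WT-202 and 59.1, 65.2 and 57.1 CPM in those of G298S-503, G298S-506 and G298S-203. In the inputs of YFP-901, YFP-902 and YFP-201 it had 178, 184 and 248 CPM. The TDP-43 and YFP inputs did not overlap, and the log2 difference from YFP was -1.23 ± 0.19 with TDP-43 WT and -1.69 ± 0.19 with G298S (adjusted p = 0.00123 and 8.49e-05). GstD3, a Delta enzyme of the 3R cluster, had 6.83 to 9.80 CPM in TDP-43 WT inputs and 8.30 to 9.04 CPM in G298S inputs, against 20.8 to 29.3 CPM in YFP inputs, with log2 differences of -1.48 and -1.47 (adjusted p = 0.000773 and 0.000355). GstE5 had log2 differences of -1.44 and -1.48.

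GstO2, an Omega enzyme that in Drosophila glutathionylates a subunit of ATP synthase, was lower by a log2 difference of -0.93 with TDP-43 WT and -0.98 with G298S (adjusted p = 0.00179 and 0.000596). GstE12, which with GstD1 had the highest levels of the family, had 487, 505.2 and 453 CPM in TDP-43 WT inputs, against 708, 759 and 1040 CPM in YFP inputs, a log2 difference of -0.70. Its neighbour CG3894, which overlaps it by 33 bases on the opposite strand, rose in the TDP-43 WT and G298S IPs by 1.90 and 1.24, where GstE12 fell. With YFP the log2FC of CG3894 was -0.24 (adjusted p = 0.387). The differences of CG3894 from YFP were 2.14 and 1.48 (adjusted p = 0.000367 and 0.0216). In the inputs CG3894 had the same direction as GstE12, with log2 differences from YFP of -0.43 and -0.62 (adjusted p = 0.12 and 0.0235). GstO3 and GstT3 were called with TDP-43 WT alone (log2 differences of -0.66 and -0.60), and their values with G298S were -0.49 and -0.48 (adjusted p = 0.0542 and 0.0528). GstD2, GstD11, GstE1 and GstT2 were called with G298S alone (-1.08, -0.78, -0.48 and -0.51), and their values with TDP-43 WT ran from -0.74 to -0.34. GstZ2, a Zeta enzyme of tyrosine breakdown, was the only member that was higher, with 47.5, 42.7 and 46.7 CPM in G298S inputs against 27.4, 28.7 and 34.3 CPM in YFP inputs (log2 difference 0.65 ± 0.16, adjusted p = 0.00873). GstD1, the stress reporter, had log2 differences of -0.24 and -0.28 (adjusted p = 0.343 and 0.225).

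Several other measures moved with these input differences, and their part in them was not tested. The summed level of 13 photoreceptor markers was 15896 to 24516 CPM in TDP-43 WT inputs and 12578 to 13739 CPM in G298S inputs, against 26836 to 33331 CPM in YFP inputs. That of 9 muscle markers was 3477 to 4816 CPM and 3301 to 6370 CPM, against 5873 to 8002 CPM, and that of 7 midgut markers was 129 to 257 CPM and 71.6 to 273 CPM, against 18.4 to 35.1 CPM in YFP inputs, where 5 of the 7 were at 0 in some library. Neuronal markers were higher, with a sum over 8 neuron markers of 1030 to 1772 CPM and 1549 to 1588 CPM, against 663 to 845 CPM in YFP inputs, and over 8 Kenyon cell markers of 464 to 702 CPM and 640 to 659 CPM, against 267 to 354 CPM (2 of 8 called higher with TDP-43 WT and 6 of 8 with G298S in each list). Fat body marker sums overlapped, and so did those of the muscle markers between G298S and YFP inputs. Of 8 fat body markers 2 were called higher with TDP-43 WT and 1 with G298S, against 7.58% and 15.4% of all genes. Of 6 tested midgut markers 5 and 4 were called higher. Of 13 photoreceptor markers 5 and 12 were called lower, against 7.37% and 12% of all genes. Of 8 glia markers 2 were called higher and 1 lower with TDP-43 WT, and 1 higher and 1 lower with G298S. Of the 9 muscle markers 3 were called lower with TDP-43 WT and 2 with G298S, against 7.37% and 12% of all genes. Their median log2 differences were -0.46 and -0.01. The 21 members of 700 to 1000 bases had a median of -0.56 for TDP-43 WT and -0.69 for G298S, beside -0.24 and -0.16 over all genes of that length. Genes under 700 bases, which include no tested member, had medians of -0.04 and 0.23, and those of 2500 bases and over had 0.33 and 0.38. With a trend on exon length removed from each library, a choice made after the data were seen, 6 and 9 members were lower. With the label prefix as a covariate 7 and 8 were lower, and without lysate WT-202 the 12 became 7. The prefix covariate gave member medians of -0.85 (TDP-43 WT) and -0.83 (G298S), against -0.56 and -0.65 in the main fit. Medians over all genes under that covariate were 0.30 and 0.25. The fit without WT-202 had a member median of -0.52 for TDP-43 WT. Removal of the length trend gave -0.42 and -0.53 for the 2 genotypes.

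The same comparison in the unbound fraction of the lysates was made after the data were seen. With TDP-43 WT 1 of 32 members was higher (GstE10, log2 difference 0.52, adjusted p = 0.03) and none was called lower, against 4.23% and 1.63% of all genes. With G298S none was called higher and 2 were lower, GstD3 by 0.64 and GstE14 by 0.83 (adjusted p = 0.0389 and 0.0269), against 5.36% and 2.5% of all genes. The median member difference from YFP in the unbound fraction was 0.28 with TDP-43 WT and 0.22 with G298S, beside 0.05 and 0.08 over all genes. GstE9, for example, had 202.6, 141 and 129 CPM in the unbound fractions of WT-502, WT-505 and WT-202, against 119, 117 and 95.6 CPM in those of YFP-901, YFP-902 and YFP-201, the opposite order to the inputs (71.2 to 89.6 CPM in TDP-43 WT inputs, against 122 to 188 CPM in YFP inputs). That difference of GstE9 in the unbound fraction was not called (0.51 ± 0.20 with TDP-43 WT, adjusted p = 0.107).

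**Figure D4:**
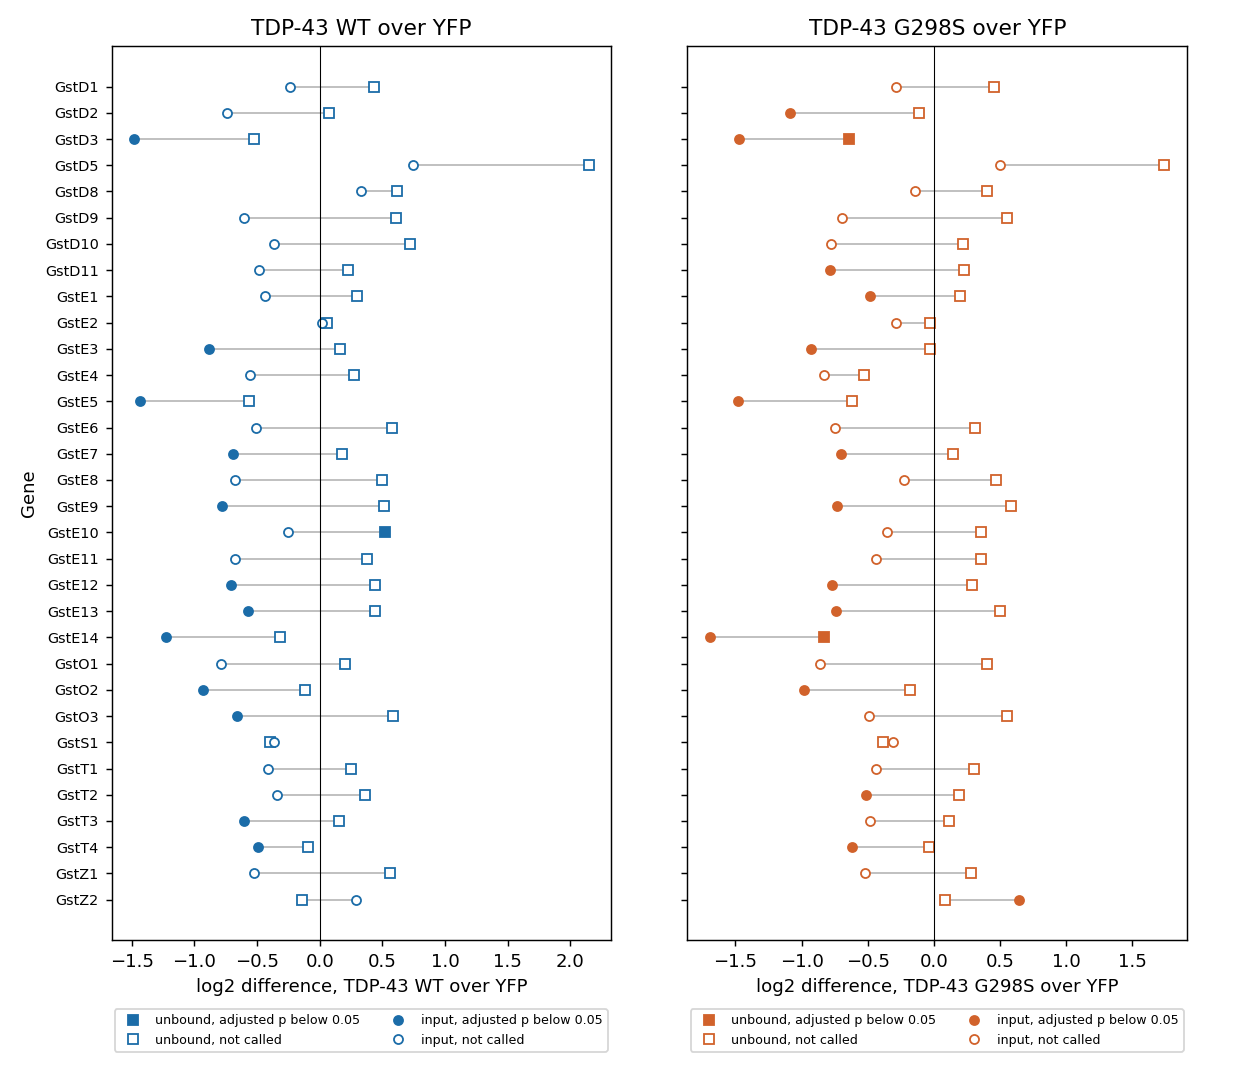
log2 difference from YFP (x axis) of the 32 tested members (rows) with TDP-43 WT (left) and G298S (right), in the unbound fraction (squares) and in the input (circles), 3 lysates per genotype, with filled symbols for an adjusted p below 0.05. The circles lie mostly left of 0 (medians -0.56 and -0.65) and the squares mostly right of it (medians 0.28 and 0.22).

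Within TDP-43 flies the family was higher in the unbound fraction than in the input, and within YFP flies no member passed the test. With TDP-43 WT and with G298S 19 of 32 members were higher, against 9.1% and 9.63% of all genes, and no member was called lower (1 and 2 members had a value below 0), against 7.8% and 8.79%. With YFP 0 members were called and 0% of all genes (2 members and 648 genes at an unadjusted p below 0.05, and 0 members and 69 genes with DESeq2). The median member log2FC was 0.75 with TDP-43 WT and 0.68 with G298S, beside 0.08 and 0.14 over all genes, and -0.19 with YFP beside -0.10. The summed family level was 3008 ± 301 CPM in the unbound fractions of TDP-43 WT flies, against 1903 ± 200.3 CPM in their inputs. In YFP flies it was 2568 ± 162 CPM, against 2974 ± 517 CPM in the inputs (SD, n = 3).

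The 16 members higher in both were GstD1, GstD2, GstD3, GstE1, GstE3, GstE6, GstE7, GstE9, GstE10, GstE12, GstE13, GstE14, GstO2, GstO3, GstT2 and GstT3, and 8 of them were among the 10 that were lower in both inputs. GstE9 rose by a log2FC of 0.98 ± 0.20 with TDP-43 WT and 0.96 ± 0.20 with G298S (adjusted p = 0.0069 and 0.0235), and its value with YFP was -0.41. GstE12 had 1065, 830 and 810 CPM in the unbound fractions of WT-502, WT-505 and WT-202, against 487, 505.2 and 453 CPM in their inputs, a log2FC of 0.90 ± 0.18. GstD1 rose by 0.64 and 0.68. GstD11 rose by 0.87 ± 0.24 with G298S (adjusted p = 0.0251), and its value with TDP-43 WT was 0.59 (adjusted p = 0.0928). GstS1 and GstZ2, the longest members, had values of -0.02 and 0.07 with TDP-43 WT and -0.09 and -0.09 with G298S.

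In contrasts added after the data were seen, log2FC of unbound over input was larger than with YFP for 13 members with TDP-43 WT and 17 with G298S, against 5.06% and 6.9% of all genes. These comparisons share inputs with those between the genotypes, so neither stands as a second observation of the other. The 19 calls with G298S became 0 when any 1 of G298S-503, G298S-506 and G298S-203 was left out, and those with TDP-43 WT became 8, 7 and 11 without WT-202, WT-502 and WT-505. The 13 of TDP-43 WT became 0 without WT-502, WT-202, G298S-503, YFP-902 or YFP-201 and 8 without G298S-203, and the 17 of G298S became 0 without G298S-503, G298S-506, G298S-203 or YFP-201 and 7 without YFP-902. The shares of all genes called in these alternatives are not given, so a loss among members cannot be told from a general loss of calls.

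Exon length moved with the unbound fraction across the whole table. Spearman's rho across genes between exon length and log2FC of unbound over input was -0.80 with TDP-43 WT and -0.72 with G298S, against 0.35 with YFP. The median log2FC of the 21 members of 700 to 1000 bases was 0.81 with TDP-43 WT and 0.73 with G298S, against 0.64 and 0.58 over all genes of that length. For 8 members of 1000 to 1500 bases it was 0.72 and 0.64, against 0.37 and 0.43 over all genes. With the trend on exon length removed, 2 members were called with TDP-43 WT and 0 with G298S, and the median member value stood 0.20 and 0.16 above that of all genes. With the same trend removed, the IP difference of GstD11 from YFP was 2.57 with TDP-43 WT and 2.68 with G298S (adjusted p = 0.00096 and 0.00359).

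**Figure D5:**
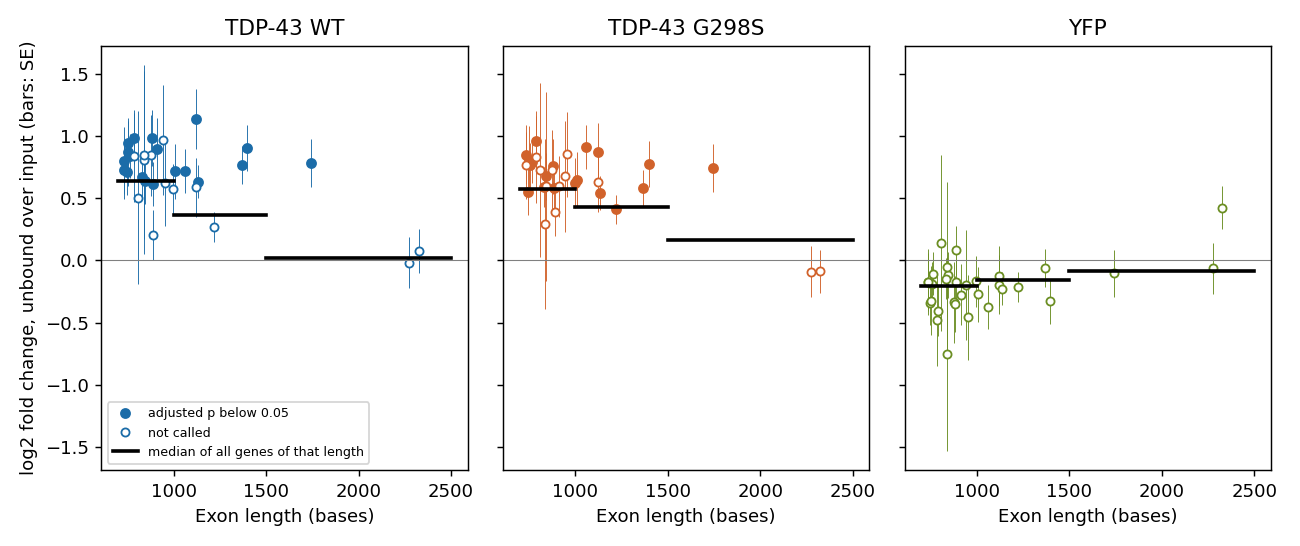
log2FC of unbound over input (y axis, with SE bars) of the 32 tested members against their exon length in bases, with TDP-43 WT, G298S and YFP from left to right and 3 lysates each. Black bars are medians over all genes of that length (0.64 and 0.58 at 700 to 1000 bases with TDP-43, -0.21 with YFP), and filled points passed an adjusted p of 0.05.

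Around the family stand the enzymes that remove oxygen radicals, those that make and recycle glutathione, and the regulators of the stress response. Of 10 tested antioxidant enzymes, 7 were lower in TDP-43 WT inputs and 6 in G298S inputs than in YFP inputs, against 7.37% and 12% of all genes, and none was called higher. They include the superoxide dismutases Sod1 (log2 differences -0.62 and -0.77) and Sod2 (-0.82 and -1.20) and the peroxiredoxin Prx6b (-1.44 and -1.11). In the IPs 4, 4 and 6 of the 10 were lower than in the input in the TDP-43 WT, G298S and YFP IPs, against 11.5%, 9.95% and 9.99% of all genes, Sod2 by 0.65, 0.68 and 0.86. In the unbound fraction 7 and 6 of the 10 were higher than in the input with TDP-43 WT and G298S, against 9.1% and 9.63% of all genes. With YFP 0 of them were called there. The difference from YFP was called higher for 5 and 4, against 5.06% and 6.9% of all genes. Of 8 genes of thioredoxin and glutathione reduction 3 were lower in each TDP-43 input, Trx2 (-0.66 and -0.67), Grx1 (-0.84 and -0.73) and Gtpx (-0.68 and -0.71), and TrxT, a thioredoxin of the testis, was higher (3.43 and 3.66). In the unbound fraction 3 of these 8 were higher than in the input with TDP-43 WT and 3 with G298S.

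Of the 3 tested genes of glutathione synthesis and breakdown 0 were called between inputs, and Ggt-1, which breaks glutathione down, rose in the TDP-43 WT IP by 0.86 ± 0.23 (adjusted p = 0.00909). Among 4 regulators of the stress response, cnc was higher in G298S inputs than in YFP inputs (log2 difference 1.53 ± 0.34, adjusted p = 0.00445) and rose in the YFP IP by 1.73, and Keap1 rose by 0.52 in the G298S IP and 0.53 in the YFP IP. Of 7 other proteins with a GST fold, sepia (se), the Omega gene between GstO3 and GstO2 whose enzyme makes a precursor of red eye pigment, was lower in the TDP-43 inputs, with log2 differences of -1.54 ± 0.22 and -1.59 ± 0.22 (adjusted p = 0.000837 and 0.000355). The axon protein fax rose in the TDP-43 WT IP by 3.12 and in the YFP IP by 1.62, and its log2FC was larger with TDP-43 WT than with G298S by 2.96 ± 0.43 (adjusted p = 0.00431). No gene of this list, fax included, was called in the difference of IP over input from YFP with either variant. In the TDP-43 WT and G298S inputs 1 of the 7 was called higher, against 7.58% and 15.4% of all genes. In the TDP-43 WT, G298S and YFP IPs 2, 3 and 1 were lower, against 11.5%, 9.95% and 9.99%.

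The counts of the other families of detoxification enzymes lay near those of all genes in the inputs. Of 80 tested cytochrome P450 genes, which oxidise foreign compounds, 5 were lower and 6 higher with TDP-43 WT and 12 were lower and 9 higher with G298S, against 7.37% lower and 7.58% higher, and 12% lower and 15.4% higher, of all genes. Their medians were 0.01 and -0.08, beside 0.13 and 0.09. Of 25 UDP-glycosyltransferases, which attach sugars, 1 was lower and 2 higher with TDP-43 WT, and 3 were lower and 2 higher with G298S. In the difference of IP over input from YFP, Ugt316A1 was called with both variants (0.87 and 0.99, adjusted p = 0.0141 and 0.018), Cyp6d5 with TDP-43 WT (1.11, adjusted p = 0.0428) and Cyp4p2 with G298S (-1.13, adjusted p = 0.0133).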

How the data were processed

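Heads were lysed, YFP-tagged protein was pulled down with GFP-Trap beads, and libraries were made from input, IP and unbound RNA with SMART-Seq HT PLUS. Per the submitters' processing notes the authors used bcl2fastq 2.19.1.403, cutadapt 2.7, STAR 2.6.1d and featureCounts 1.6.3, and deposited raw whole-number counts per gene, in 1 table. The genome release, the strand setting and the treatment of reads shared between paralogs are not given in the sources used here. Every line named a gene, and 0 columns were left unmapped.

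Symbols, exon lengths and gene order came from Ensembl release 115. No sequence is shown, since no sequence table was used here. Counts were fitted in R 4.3.3 with edgeR 4.0.16 (TMM, filterByExpr, glmQLFit, glmQLFTest), on 18 IP and input libraries (6 groups, 12921 genes) or on all 27 libraries (9 groups, 13349 genes) for contrasts with the unbound fraction. P values were adjusted by Benjamini-Hochberg across every gene in a fit, a gene was called below 0.05, and the study's limit of log2FC above 1 was counted beside it. CPM and RPKM use the TMM sizes of all 27 libraries, and log2 CPM a prior count of 2. Lysates of 1 genotype are the replicates. Reads carry no molecular identifiers, so counting error understates the error. The fit was tested on simulated counts.

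All members are described, with list genes where their count is given and the 5 genes most like GstD11. The members, the lists and the comparisons were chosen with earlier results of these data known. Libraries of 1 lysate share material. Their deviations from the group means correlated across genes at 0.06 to 0.73 (input and IP), 0.68 to 0.92 (input and unbound) and 0.04 to 0.74 (IP and unbound). The main fit has no block, since the study names none. Alternatives were DESeq2 1.42.0, its size factors, library sizes alone, no filter, the lysate as a replicate block, all 27 libraries, the label prefix with fraction as covariates, the unbound fraction as reference, each lysate left out and WT-502 with G298S-203 left out. Alternatives added after the data were seen were the unbound fraction in place of the input, a robust loess trend on exon length (span 0.5) removed, and no mitochondrially encoded or rRNA genes.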

Additional observations from a re-analysis of the deposited data

Results flagged for a closer look

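The change of GstD11 from input to IP differed between genotypes in the edgeR interaction test, by 2.89 on the log2 scale for TDP-43 WT minus YFP (adjusted p = 7.09e-05) and by 2.88 for G298S minus YFP (adjusted p = 0.000994), with IP above input in 6 of 6 TDP-43 lysates and in 0 of 3 YFP lysates.

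The change from input to unbound fraction also differed between TDP-43 and YFP flies in the interaction test, for members that differ in abundance and class. For TDP-43 WT minus YFP the log2 difference was 1.05 for GstD3, 0.81 for GstE1, 1.13 for GstE3, 0.95 for GstE7, 1.26 for GstE8, 1.39 for GstE9, 0.86 for GstE10, 1.23 for GstE12, 1.09 for GstE13, 0.89 for GstO2, 1.34 for GstO3, 0.83 for GstT3 and 1.18 for GstZ1 (adjusted p from 0.031 to 0.0472). For G298S minus YFP it was 0.79 for GstD1, 1.03 for GstD2, 0.89 for GstD3, 1.06 for GstD11, 0.73 for GstE1, 0.96 for GstE3, 0.90 for GstE7, 1.37 for GstE9, 0.77 for GstE10, 1.10 for GstE12, 1.28 for GstE13, 0.92 for GstE14, 0.85 for GstO2, 1.11 for GstO3, 0.75 for GstT2, 0.64 for GstT3 and 0.63 for GstT4 (adjusted p from 0.0318 to 0.0479). These contrasts were added after the data were seen, and with a trend on exon length removed 0 members passed in either. Before its removal 25 members had an unadjusted p below 0.05 in each, against 3696 and 4132 of the 13349 genes.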

How the results depend on the processing

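Of 518 alternative counts of members called, 431 were within 1.5 times the reported count. Of 2165 values of called members, 1565 kept direction and call, 583 kept direction only and 17 changed sign, and 12 of 121 called values kept the call under every alternative. The genotype contrasts of GstD11 lost the call in 1 alternative each, the label prefix, which only 1 of 3 prefixes links to all genotypes. The replicate block, which inputs between genotypes cannot have, ended the call of GstE13 in the YFP IP (-0.53, adjusted p = 0.0509) and changed no other call. With 3 lysates per genotype the low-count members (GstD5, GstD8 and GstE4) had standard errors of 0.67 to 1.22. The cause of the changes below was not tested. For the alternatives, here and above, shares of all genes called are not given. A change in a count of members therefore cannot be told from a change over all genes.

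With library sizes alone, which moved the median of all genes by 0.88 in the G298S IP, members higher were 10 (TDP-43 WT IP), 19 (G298S IP), 13 (its difference from YFP), 0 (G298S over YFP input), 6 (TDP-43 WT over G298S input), 12 (TDP-43 WT unbound) and 26 (G298S minus YFP, unbound), and members lower were 0, 0 and 1 (TDP-43 WT, G298S and YFP IPs), 1 (TDP-43 WT minus G298S, IP) and 27 (G298S over YFP input). In the G298S IP GstE9 turned to 0.35, GstE12 to 0.38 and GstE14 to 0.32. With the unbound fraction as the IP reference 3 and 3 members were higher with TDP-43 WT and G298S, 16, 16 and 0 were lower with TDP-43 WT, G298S and YFP, and 1 and 2 were lower in the differences from YFP. DESeq2 called 4 and 7 lower in the TDP-43 WT and G298S IPs, 1 lower in each G298S difference from YFP (IP and unbound) and 21 higher in that of TDP-43 WT (unbound). Its size factors gave 4 lower in the TDP-43 WT IP. All 27 libraries in the fit gave 1, 2 and 7 lower in the TDP-43 WT, G298S and YFP IPs. Without a filter 11 members were higher in G298S minus YFP, unbound.

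With the label prefix the differences from YFP in the IP gave 0 and 0 higher, and the inputs 7 and 8 lower and 0 higher. Without WT-502 and G298S-203 together 0 were lower in the TDP-43 WT IP, 0 and 11 higher in the unbound fractions and 0 and 10 in their differences from YFP. Among alternatives chosen after seeing the data, removal of the length trend gave 4, 2 and 2 lower in the 3 IPs, 6 and 9 lower in the inputs, 2 and 0 higher in the unbound fractions and 0 and 0 in their differences. Without mitochondrial and rRNA genes 1 and 1 were lower in the TDP-43 IPs, 11 higher in the G298S unbound fraction and 0 and 4 in the differences. The unbound fraction in place of the input gave 1 higher and 0 lower with TDP-43 WT and 0 higher and 2 lower with G298S over YFP, and turned GstE3 to 0.16, GstE7 to 0.18, GstE9 to 0.51, GstE12 to 0.44, GstE13 to 0.44, GstO3 to 0.58 and GstT3 to 0.15 with TDP-43 WT, and GstD11 to 0.23, GstE1 to 0.20, GstE7 to 0.14, GstE9 to 0.58, GstE12 to 0.29, GstE13 to 0.50 and GstT2 to 0.19 with G298S.

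Leaving out 1 lysate gave 0 to 4, 1 to 5 and 1 to 5 lower in the TDP-43 WT, G298S and YFP IPs, 7 to 12 lower in TDP-43 WT over YFP inputs, 7 to 19 and 0 to 20 higher in the TDP-43 WT and G298S unbound fractions, and 0 to 14 and 0 to 15 in their differences from YFP.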
